A study of Rattus norvegicus with 12 samples.

Results

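Cyp17a1 encodes the cytochrome P450 of the endoplasmic reticulum that turns progestins into androgens, and its transcript was read from the only probe set annotated with that symbol, 1 of 14509 genes measured in corpora lutea (CL) of pregnant Wistar rats. The gene was selected on its values on these same arrays, where it differed strongly between AI and VEH, so its own levels and differences are described here without a test. The genes set beside it for their likeness were chosen by their correlation with it and are not tested either, although Cyp1b1 is counted within its gene family. The study asked what happens in the CL when estradiol (E2) synthesis is blocked and when E2 is given back. Total RNA of CL was hybridised to 12 Affymetrix Rat Gene 1.0 ST arrays, with 3 rats per group and 1 rat per array. The AI+E2 group was sampled on day 16 of pregnancy after 4 days of the aromatase inhibitor anastrozole (AI, 1 mg/kg per day, by mouth) together with E2 (10 µg per day, s.c.). The AI group received anastrozole alone over the same 4 days, the VEH group received vehicle alone, and both were also sampled on day 16. The D12 group was sampled on day 12 and had no treatment. AI acts on the whole animal, so ovary and other tissues were exposed as well as the CL.

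As background, Cyp17a1 takes progesterone and pregnenolone, the products of Cyp11a1 and of the Hsd3b enzymes, and makes the androgens that aromatase, the product of Cyp19a1, turns into estrogens. It needs electrons from P450 oxidoreductase (Por), and cytochrome b5 (Cyb5a) favours the cleavage of the side chain that yields androgens. In the ovary it is best known from theca cells of follicles, where LH raises it through cyclic AMP, while the CL of the pregnant rat is known for its high aromatase and for using androgens as the source of its E2.

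The deposited values are log2 values made by RMA, a method that corrects the background, brings the arrays to a common distribution and gives 1 value per probe set. The array medians lay between 6.51 and 6.56, and 0 pairs of arrays held identical values. Of the 9 measured markers of luteal cells, all but Akr1c3 were near the top of the signals of every array, with Parm1 the lowest at the 95.5 to 97.2 percentile of genes. The LH receptor Lhcgr had 99.8 at its lowest, while Akr1c3 ran from the 34.1 to the 98.3 percentile. Differences between groups are differences of mean log2 values, given with their standard error (SE) from a limma fit over all 12 arrays. For genes other than Cyp17a1 and those chosen for their likeness to it, a gene rose or fell where the limma p was under 0.05 after Benjamini-Hochberg adjustment over the 14509 genes. With 3 rats per group, the number of arrays limits the precision.

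In CL of AI+E2 treated rats the log2 RMA value of Cyp17a1 was 7.40, 7.33 and 7.63. It was 10.86, 10.98 and 10.73 in CL of AI treated rats, 6.27, 6.46 and 6.39 in CL of VEH treated rats and 7.98, 7.70 and 7.95 on day 12. The 3 AI arrays stood far above all others, the VEH arrays were the lowest, and AI+E2 and D12 lay between them. The means were 7.45 ± 0.16 for AI+E2, 10.86 ± 0.12 for AI, 6.37 ± 0.099 for VEH and 7.88 ± 0.15 for D12 (SD, n = 3 each). The order from low to high was thus VEH, AI+E2, D12 and AI, and no array of one group overlapped with another group. The neighbours AI+E2 and D12 were separated by a gap of only 0.068 between their nearest arrays, which is less than the SD of either group. The gap was 0.86 between AI+E2 and VEH and 2.75 between AI and D12.

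**Figure D1:**
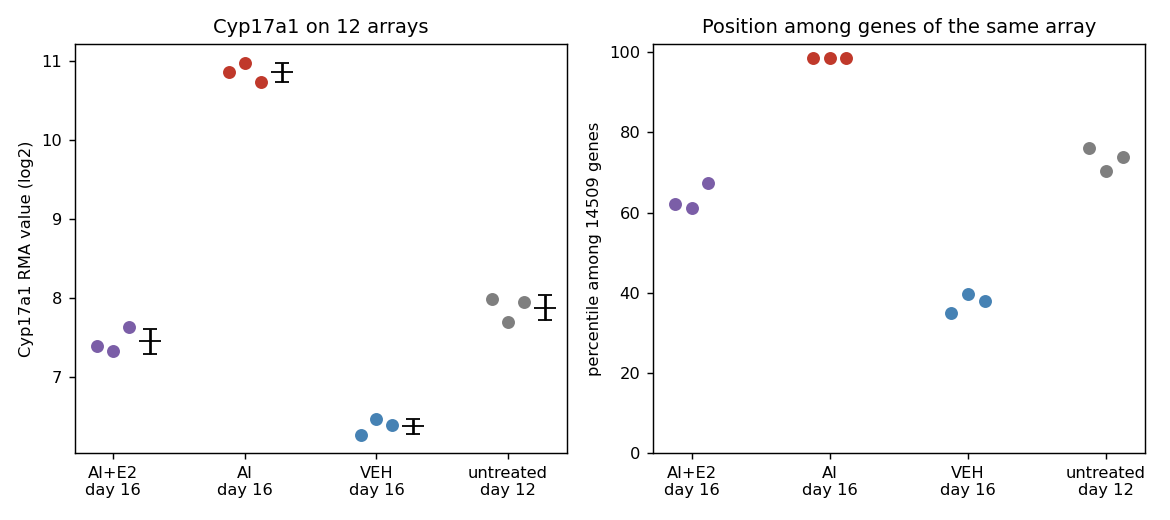
The left panel plots the log2 RMA value of Cyp17a1 on each of the 12 arrays, with the mean and SD of each group of 3 as a bar, and the right panel its percentile among the 14509 genes of the same array. The 3 AI arrays sit between 10.73 and 10.98 and above the 98 percentile, while the VEH arrays lie between 6.27 and 6.46.

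The difference of AI against VEH was 4.48 (SE 0.096), a 22.4-fold higher signal. Among the 14509 genes this was the largest rise in AI, and it was also the largest among all 29214 probe sets, named or not. The next were Atp6v0d2, which belongs to the proton pump of vacuoles and lysosomes, with 3.94, the isoprenoid enzyme Idi1 with 3.45 and the lanosterol demethylase Cyp51 with 3.21. In AI+E2 against AI, Cyp17a1 had a difference of -3.41 (SE 0.096), a 10.6-fold lower signal, and again none of the 14509 genes fell further. It was followed by the seminal vesicle secretory protein gene Svs5 with -2.99, by Atp6v0d2 with -2.65 and by the fetuin gene Fetub with -2.48. Both comparisons share the AI arrays, so that these ranks are not independent of each other.

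AI+E2 remained above VEH by 1.08 (SE 0.096), a 2.11-fold difference, which is 24.0% of the log2 difference of AI against VEH. In this comparison Cyp17a1 was the 38th of the genes ranked by rise, and the largest were Akr1c3 with 4.14 and the casein gene Csn1s1 with 3.31. VEH against D12 had a difference of -1.51 (SE 0.096), a 2.84-fold lower signal on day 16, and Cyp17a1 ranked 15 in that direction. The 14 genes with a larger difference included enzymes of cholesterol synthesis such as Idi1 (-2.76), Msmo1 (-2.59), Sqle (-1.92) and Fdps (-1.58), with Akr1c3 (-2.75) and Atp6v0d2 (-2.34). AI exceeded D12 by 2.98, the largest rise of any gene in that comparison, and AI+E2 against D12 had a difference of -0.43 (rank 209). In bulk tissue, fewer cells of a type and less RNA per cell cannot be told apart.

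The place of the Cyp17a1 value within each array moved with these differences. It lay between the 61.0 and 67.3 percentile of genes in AI+E2, between 98.4 and 98.6 in AI, between 35.1 and 39.7 in VEH and between 70.3 and 76.0 on D12. By group mean it ranked 5283 in AI+E2, 214 in AI, 9074 in VEH and 3835 on D12, out of 14509. Probe sets differ in affinity, so these ranks describe positions in the signal distribution and not the amount of Cyp17a1 RNA relative to other transcripts.

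The genes that followed Cyp17a1 most closely were found by Pearson's r over the 12 arrays among the 258 other genes whose group means spanned at least 1 log2 unit. The 12 points are 4 groups of 3, so r mostly compares group means. The 15 most like it were Pfkfb4, Kctd19, Mmd, Shisa4, Mon1b, Slc41a3, Mvd, Lmo4, Svs5, Fasn, Cyp1b1, Sptan1, Acly, Nfe2 and Atp6v0d2, with r from 0.985 for Pfkfb4 to 0.955 for Atp6v0d2 and Spearman's rho from 0.783 for Sptan1 to 0.979 for Mvd. Among the 258 candidates, 28 had r over 0.9 and 21 had r under -0.9, and the median was -0.32. The r of the deviations from the group means, which leaves out the differences between groups, ran from -0.39 for Mon1b to 0.62 for Shisa4. Its median was 0.44 over the 15, beside 0.037 over all genes rather than over the candidates. The choice by r over the same arrays in part selected for like deviations, so these values are a description only.

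Several of the 15 have a known place in metabolism. Acly makes acetyl-CoA for lipid synthesis, Fasn joins it into fatty acids, Mvd acts in the mevalonate pathway, Pfkfb4 sets the level of an activator of glycolysis, and Cyp1b1 is a P450 that hydroxylates estrogens. Pfkfb4, the gene most like Cyp17a1, had log2 values of 6.57, 6.42 and 6.62 in AI+E2, 7.39, 7.42 and 7.25 in AI, 6.25, 6.25 and 6.40 in VEH and 6.54, 6.64 and 6.71 on D12. Its AI arrays were the highest and its VEH arrays the lowest, with a difference of 1.05 between the means. Svs5 had values of 5.45, 5.53 and 5.45 in AI+E2, 8.59, 8.81 and 8.00 in AI, 5.18, 5.31 and 5.32 in VEH and 5.90, 6.03 and 5.75 on D12. AI stood apart for Svs5 as it did for Cyp17a1, and AI+E2 kept 6.42% of the difference of AI against VEH. Cyp1b1 had values of 6.20, 6.19 and 6.29 in AI+E2, 8.56, 8.71 and 8.08 in AI, 6.10, 6.21 and 6.27 in VEH and 6.46, 6.70 and 6.63 on D12. Its AI+E2 and VEH arrays overlapped, and AI was 2.26 above VEH. Atp6v0d2 had values of 7.10, 7.20 and 7.46 in AI+E2, 9.95, 9.90 and 9.85 in AI, 6.08, 5.90 and 5.88 in VEH and 8.09, 8.35 and 8.45 on D12. Its 4 groups were in the same order as those of Cyp17a1, and AI+E2 kept 32.9% of the difference.

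Over the 15 genes, the difference of AI against VEH ran from 1.01 for Kctd19 to 3.94 for Atp6v0d2. The share of this difference left in AI+E2 ran from -1.85% for Nfe2 to 46.3% for Acly, with a median of 22.5%. The group means of 12 of the 15 were in the order VEH, AI+E2, D12 and AI, which 36 of the 258 candidates (14.0%) shared. Since r mostly compares group means, the choice of the 15 by r favoured this order. The exceptions were Kctd19 and Sptan1, where D12 lay below AI+E2, and Nfe2, where AI+E2 lay below VEH. Just inside and just outside the limit of 15 genes lay Atp6v0d2 (r 0.955) and Aacs (r 0.952), and at the limit of the span lay Epdr1 (1.001) and Hspa4l (0.9996). The list depended on the measure, since 2 of the 15 remained with Spearman's rho. With a span of at least 2, only Svs5, Cyp1b1 and Atp6v0d2 of the 15 could be candidates, and these 3 remained.

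The 5 genes with the most opposite pattern were Glod5, Glrx, Enpp3, Anxa5 and Smoc2, with r from -0.975 for Glod5 to -0.948 for Smoc2. Glod5, a glyoxalase domain gene, had values of 9.08, 8.91 and 9.11 in AI+E2, 6.28, 6.42 and 6.47 in AI, 10.41, 10.10 and 10.23 in VEH and 8.00, 8.49 and 8.22 on D12. It was lowest in AI and highest in VEH, with a difference of -3.85 between them. In 4 of the 5 genes the order of the groups was the exact reverse of that of Cyp17a1, and in Smoc2 AI+E2 lay below D12. The choice by the lowest r favoured such an order.

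**Figure D2:**
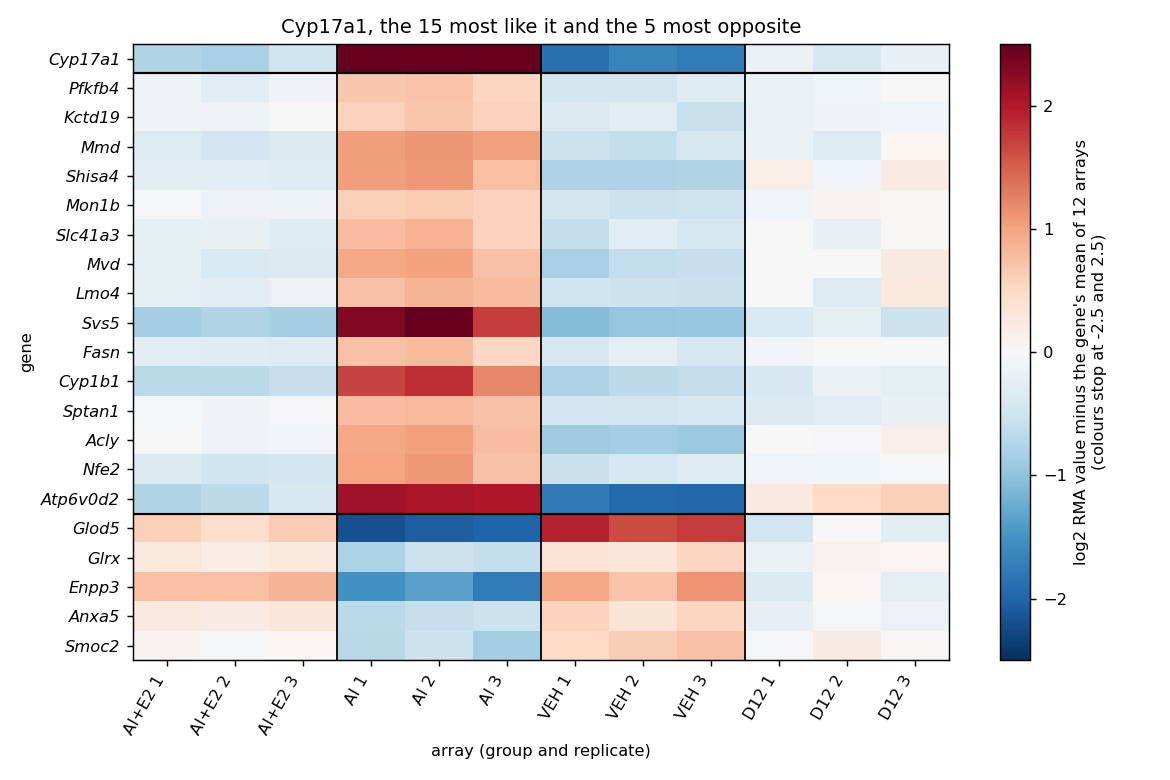
Each row is a gene and each column an array, and colour gives the log2 RMA value minus the gene's mean of the 12 arrays, with colours that stop at -2.5 and 2.5. Cyp17a1 is on top, above the 15 genes most like it, which are highest in the 3 AI arrays, and the 5 most opposite genes, which are lowest there.

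RefSeq promoter entries (build GRCr8) were matched for 11 of the 15 genes, and the 250 bases before each start site were searched on both strands. The motif AAGGTCA, bound by the NR5A receptors that act on steroidogenic genes, was in 1 of the 11, Svs5, and in 3.99% of all 33469 promoters. The motifs were AAGGTCA itself, its core GGTCA, the sterol regulatory element of the LDL receptor and the palindromic estrogen response element, made of GGTCA and its reverse complement around a spacer of any bases. The sterol regulatory element was in 0 of the 11 and in 0.230% of all promoters, and the estrogen response element was in 0 of the 11 and in 0.0239%. The core GGTCA, which AAGGTCA and the estrogen response element contain, was in 5 of the 11 (Pfkfb4, Shisa4, Svs5, Cyp1b1 and Acly) and in 35.4% of all promoters. A match is only a run of letters in this window. The promoter of Svs5 is shown because the gene fell next to Cyp17a1 in AI+E2 and held the longer motif, which starts at -75 and is in capitals. It covers chr3:173415271-173415520 on the plus strand.
Svs5: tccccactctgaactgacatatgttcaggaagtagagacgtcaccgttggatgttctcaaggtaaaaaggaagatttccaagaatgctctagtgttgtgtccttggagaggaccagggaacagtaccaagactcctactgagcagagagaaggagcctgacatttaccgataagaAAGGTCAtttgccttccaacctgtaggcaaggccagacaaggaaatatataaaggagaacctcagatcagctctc

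The windows around GGTCA, or TGACC where it lies on the other strand, are shown for the other 4 genes so that their flanks can be set side by side, with the core in capitals. Those of Pfkfb4 start their core at -201 and -85 (chr8:118525955-118525979 and chr8:118526071-118526095, plus strand). Those of Shisa4 start at -223 and -214 (chr13:49355808-49355832 and chr13:49355799-49355823, minus strand). The windows of Shisa4 overlap, so that each also holds the core of the other in small letters and their flanks are not separate. The core starts at -150 in Cyp1b1 (chr6:21094405-21094429, plus strand) and at -147 in Acly (chr10:85963764-85963788, minus strand).
Pfkfb4, first: caggacagcaGGTCAgtcattagag
Pfkfb4, second: gcgactgtgaGGTCAcatttctcag
Shisa4, first: caggcctcccTGACCgcagtgacca
Shisa4, second: ctgaccgcagTGACCagctgttggc
Cyp1b1: gaccaccctgGGTCAccctgagcac
Acly: gtcagccccgGGTCAggcatgaggg

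The steps before Cyp17a1 bring cholesterol into mitochondria and turn it into progesterone. Of 8 measured genes of this supply, 5 rose and 0 fell in AI against VEH, where 5.91% of all genes rose and 11.0% fell, and the median difference was 0.21, beside 0.013 over all genes. Fdx1, the ferredoxin that hands electrons to the mitochondrial P450 Cyp11a1, rose most, by 1.18 (SE 0.072, adjusted p = 1.66e-08). Its values were 11.30, 11.21 and 11.39 in AI+E2, 11.21, 11.24 and 11.28 in AI, 10.06, 10.01 and 10.11 in VEH and 10.65, 10.52 and 10.80 on D12. AI+E2 and AI overlapped for Fdx1, and both lay above VEH. The rise of Scarb1 was 0.30 (adjusted p = 0.00177). The other 3 rises, in Star, Cyp11a1 and Hsd3b2, were of 0.21, 0.21 and 0.36. They ended when single arrays were left out, that of Star without AI replicate 1 (0.19, adjusted p = 0.057) and that of Hsd3b2 without AI replicate 3 (0.33, adjusted p = 0.052) or VEH replicate 1 (0.30, adjusted p = 0.066). That of Cyp11a1 ended without AI replicate 1 or 2 or VEH replicate 1 or 3, with differences of 0.17 to 0.22.

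In AI+E2 against AI, where 8.65% of all genes rose and 4.14% fell, 1 of the 8 supply genes rose and 1 fell. The fall was in Stard3, a cholesterol carrier of late endosomes (-0.36, adjusted p = 0.00123). Fdx1 had a difference of 0.06 and did not pass. The rise was in Tspo, a protein of the outer mitochondrial membrane (0.39, adjusted p = 0.0292), a call that ended without AI replicate 1 or 2 or any AI+E2 replicate (0.34 to 0.40). In AI+E2 against VEH, where 6.11% of all genes rose and 6.91% fell, Fdx1 rose by 1.24 (adjusted p = 2.25e-08) and Stard3 fell by 0.47 (adjusted p = 0.000126). Hsd3b5, of the Hsd3b family, did not pass in any of the 4 main comparisons, and its signal was low, at the 5.89 to 7.60 percentile of genes. In VEH against D12, where 6.91% rose and 3.23% fell, Fdx1 (-0.60, adjusted p = 6.40e-05) and Hsd3b2 (-0.48, adjusted p = 0.00353) fell and 0 rose. Values of Hsd3b genes are uncertain, since close relatives of that family can share probes.

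Of the 8 electron donors and partners of microsomal P450 enzymes, 2 rose and 0 fell in AI against VEH (all genes: 5.91% and 11.0%). These were the cytochromes b5 Cyb5a, with a difference of 0.61 (SE 0.075, adjusted p = 3.28e-05), and Cyb5b, with 0.66 (SE 0.078, adjusted p = 2.05e-05). Cyb5a had values of 11.14, 11.01 and 11.05 in AI+E2, 11.17, 11.27 and 11.16 in AI, 10.44, 10.65 and 10.68 in VEH and 10.93, 10.79 and 10.98 on D12. The VEH arrays were the lowest and the AI arrays the highest, as for Cyp17a1, but AI+E2 differed from AI by only -0.13, which did not pass. Por, the oxidoreductase that Cyp17a1 depends on, had values of 7.47, 7.57 and 7.49 in AI+E2, 7.81, 7.84 and 7.83 in AI, 8.08, 7.88 and 7.80 in VEH and 7.85, 7.99 and 7.92 on D12. It was lowest in AI+E2, while AI overlapped with VEH. Of the 8, 3 fell and 0 rose in AI+E2 against AI (all genes: 4.14% and 8.65%). The falls were in Por (-0.32, adjusted p = 0.00648), Cyb5b (-0.42, adjusted p = 0.00173) and Pgrmc1 (-0.28, adjusted p = 0.00409). Against VEH, where 6.11% of all genes rose and 6.91% fell, AI+E2 had a rise of Cyb5a by 0.47 (adjusted p = 0.00051) and a fall of Por (-0.41, adjusted p = 0.000937). Pgrmc1 (-0.23) and Pgrmc2 (-0.27) fell there too, but the call of Pgrmc1 ended without AI+E2 replicate 1 or 3 or VEH replicate 1 (-0.23 to -0.19), and that of Pgrmc2 without AI+E2 replicate 1 or 2 or VEH replicate 2 or 3 (-0.27 to -0.22). In VEH against D12, where 6.91% of all genes rose and 3.23% fell, Cyb5b (-0.42, adjusted p = 0.00271) and Pgrmc1 (-0.26, adjusted p = 0.0113) fell. Cyb5a fell too (-0.31, adjusted p = 0.0164), a call that ended without D12 replicate 1 or 3 or VEH replicate 1 (-0.29, -0.27 and -0.23). The cytochrome b5 reductases Cyb5r1, Cyb5r2 and Cyb5r3 did not pass in any of the 4 main comparisons.

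Of 17 measured enzymes that convert androgens, estrogens and progesterone further, 2 rose and 4 fell in AI against VEH (all genes: 5.91% and 11.0%). Cyp19a1, the aromatase that uses the androgens made by way of Cyp17a1 and whose protein AI inhibits, had values of 11.30, 11.25 and 11.27 in AI+E2, 11.74, 11.86 and 11.85 in AI, 12.08, 12.09 and 12.11 in VEH and 11.36, 11.55 and 11.45 on D12. It was highest in VEH, where Cyp17a1 was lowest, and lowest in AI+E2. It fell by 0.27 in AI against VEH (SE 0.060, adjusted p = 0.00452) and by 0.54 in AI+E2 against AI (adjusted p = 1.59e-05), and it rose by 0.64 in VEH against D12 (adjusted p = 5.60e-06). Cyp17a1 was thus higher and Cyp19a1 lower in AI than in VEH, Cyp17a1 was lower and Cyp19a1 higher in VEH than on D12, and both were lower in AI+E2 than in AI.

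Akr1c3, formerly Akr1c18, which in rat CL inactivates progesterone and so competes with Cyp17a1 for a substrate, had values of 10.70, 10.56 and 10.83 in AI+E2, 7.76, 8.10 and 8.67 in AI, 6.23, 6.63 and 6.79 in VEH and 8.98, 9.95 and 8.96 on D12. VEH was lowest, as for Cyp17a1, but AI+E2 rather than AI was highest. It rose by 1.63 in AI against VEH (SE 0.24, adjusted p = 0.000203) and by a further 2.52 in AI+E2 against AI (adjusted p = 4.28e-06), where Cyp17a1 was lower. The aldo-keto reductases are close relatives whose probes can overlap, so these values are uncertain. Akr1c14, of the same family, fell by 0.53 in AI against VEH (adjusted p = 0.000726), and Hsd17b12, an enzyme of fatty acid elongation that can also reduce estrone, rose by 0.40 (adjusted p = 0.00494). The 2 other falls, of Hsd17b4 and Hsd17b7 (-0.19 and -0.21), ended when single arrays were left out. That of Hsd17b4 ended without AI replicate 1 or 3, AI+E2 replicate 1 or any VEH replicate (-0.19 to -0.16), and that of Hsd17b7 without AI replicate 1 or 3 or VEH replicate 2 or 3 (-0.21 to -0.16).

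Between AI+E2 and AI, 3 of the 17 conversion enzymes rose and 2 fell (all genes: 8.65% and 4.14%). Besides Akr1c3, these rises were in Hsd17b4, an enzyme of fatty acid oxidation in peroxisomes (0.38, adjusted p = 0.000356), and Srd5a3, a polyprenol reductase of the steroid reductase family (0.47, adjusted p = 0.00101), and all of them kept their call whichever array was left out. Besides Cyp19a1, Hsd17b6 fell (-0.30, adjusted p = 0.0142), a call that ended without AI replicate 1 (-0.24) or AI+E2 replicate 1 (-0.29). In AI+E2 against VEH, Akr1c3, Hsd17b4 (0.19) and Srd5a3 (0.34) rose, and Cyp19a1 and Hsd17b6 (-0.31) fell (all genes: 6.11% and 6.91%). Of these calls, that of Srd5a3 ended without AI+E2 replicate 1 or VEH replicate 3 (0.31 and 0.25) and that of Hsd17b6 without VEH replicate 1 (-0.26). That of Hsd17b4 ended without AI replicate 1, AI+E2 replicate 1 or 3, D12 replicate 1 or any VEH replicate (0.15 to 0.19). In VEH against D12, Cyp19a1, Akr1c14 (0.79), Hsd17b6 (0.31) and the steroid sulfatase Sts (0.30) rose, and Akr1c3 and Hsd17b12 (-0.35) fell (all genes: 6.91% and 3.23%). The calls of Hsd17b6 (without VEH replicate 1 or 2, 0.25 and 0.28), Sts (without D12 or VEH replicate 1 or 2, 0.20 to 0.33) and Hsd17b12 (without D12 replicate 1 or 3 or VEH replicate 1, -0.34 to -0.27) ended when single arrays were left out. Hsd17b2, Hsd17b8, Hsd17b10, Hsd17b11 and Sult2a1 did not pass in any of the 4 main comparisons. Hsd17b3, which in testis makes testosterone from androstenedione, had a difference of 0.02 in AI against VEH and did not pass. Sult2a1 (0.903 to 3.56 percentile of genes) and Hsd17b3 (3.18 to 6.29) had signals too low to tell a steady level from no expression. Hsd17b1, which in the ovary turns estrone into E2, had values of 8.13, 8.12 and 8.23 in AI+E2, 7.09, 7.14 and 8.48 in AI, 9.36, 8.13 and 7.30 in VEH and 8.24, 7.45 and 8.43 on D12. These arrays scattered within AI and within VEH, and none of its differences in the 4 main comparisons passed.

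**Figure D3:**
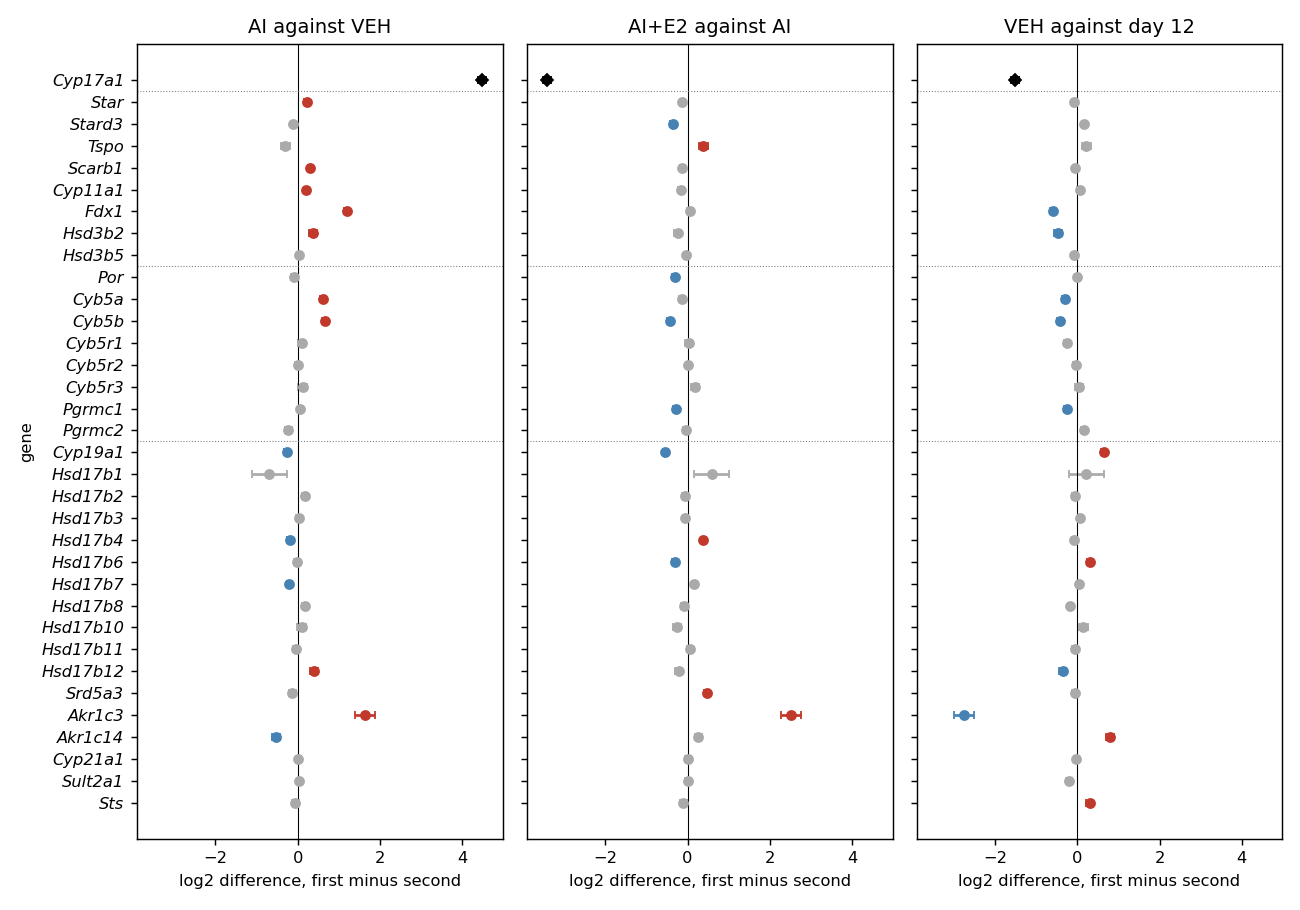
Points give the log2 difference of each gene with its SE in 3 comparisons, for Cyp17a1 (black diamonds, not tested) and, between dotted lines from top to bottom, for cholesterol to progesterone genes, electron donors of P450 enzymes and later steroid enzymes. Red marks genes that rose and blue genes that fell at an adjusted p under 0.05, and grey those that did not pass. Cyp17a1 lies at 4.48 in AI against VEH and Fdx1 and Akr1c3, the next, at 1.18 and 1.63.

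Of 19 measured transcription factors known to act on Cyp17a1 in other cells, 2 rose and 0 fell in AI against VEH (all genes: 5.91% and 11.0%). Srebf2, which drives the genes of cholesterol synthesis, rose by 0.70 (SE 0.056, adjusted p = 3.67e-07). Its values were 9.21, 9.17 and 9.21 in AI+E2, 9.64, 9.63 and 9.57 in AI, 8.94, 8.92 and 8.87 in VEH and 9.45, 9.37 and 9.53 on D12, which is the order of groups seen for Cyp17a1. Srebf2 fell by 0.41 in AI+E2 against AI (adjusted p = 0.00011) and by 0.54 in VEH against D12 (adjusted p = 1.60e-05). The rise of Gata4, a zinc finger activator of gonadal genes, was 0.38 (adjusted p = 0.0187) and ended without AI replicate 2 (0.28, adjusted p = 0.0864), VEH replicate 1 (0.35, adjusted p = 0.0676) or VEH replicate 3 (0.36, adjusted p = 0.0554). Between AI+E2 and AI, the orphan receptor Nr4a1, an early response gene, rose by 1.39 (adjusted p = 5.58e-06), and the repressor Nr0b2 fell by 0.72 (adjusted p = 0.000277). Of the 19, 1 thus rose and 2 fell there (all genes: 8.65% and 4.14%). The 3 AI+E2 arrays of Nr4a1 (8.52, 8.60 and 8.53) lay above all others, the highest of which was 7.81 in VEH. Nr5a2, the NR5A receptor of the CL, had a difference of 0.03 in AI against VEH and fell by 0.27 in VEH against D12 (adjusted p = 0.0102). The steroidogenic factor Nr5a1 was not analysed here.

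Of 17 measured genes of LH receptor and cyclic AMP signalling, 1 rose and 2 fell in AI against VEH (all genes: 5.91% and 11.0%). The adenylate cyclase Adcy6 fell by 0.77 (SE 0.072, adjusted p = 2.08e-06), with values of 7.43, 7.41 and 7.30 in AI+E2, 7.48, 7.52 and 7.36 in AI, 8.21, 8.31 and 8.14 in VEH and 7.57, 7.46 and 7.70 on D12. VEH stood above the other 3 groups. The rise of Prkaca, a catalytic subunit of protein kinase A (0.26, adjusted p = 0.0369), ended without AI replicate 1 or 2 or VEH replicate 2 or 3 (0.19 to 0.28). The fall of Rgs4 (-0.26, adjusted p = 0.0389) ended without any AI replicate, AI+E2 replicate 1 or 3, D12 replicate 1 or VEH replicate 1 or 3 (-0.29 to -0.15). Lhcgr had a difference of 0.09 in AI against VEH and did not pass. It rose by 0.25 in AI+E2 against VEH (adjusted p = 0.00815). Rgs2, a brake on G protein signalling, rose by 1.07 in AI+E2 against AI (adjusted p = 1.56e-05).

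The cell type in which Cyp17a1 is best known was examined through 9 measured markers of theca and interstitial cells. In AI against VEH, 2 of the 9 rose and 1 fell (all genes: 5.91% and 11.0%). Insl3, a peptide hormone of theca and Leydig cells, had values of 6.69, 6.73 and 6.53 in AI+E2, 7.20, 7.62 and 7.40 in AI, 6.77, 6.63 and 6.57 in VEH and 6.61, 6.44 and 6.61 on D12. Its 3 AI arrays lay above all others, and the other groups overlapped in part. It rose by 0.75 in AI against VEH (SE 0.097, adjusted p = 4.89e-05) and fell by 0.75 in AI+E2 against AI (adjusted p = 6.67e-05). The matrix protein Dcn rose by 0.50 in AI against VEH and the peptidase Enpep fell by 0.53 (adjusted p = 0.00289 and 0.00222), while Gli1, Gli2, Tcf21, Nr2f2, Lum and Aldh1a1 did not pass. The summed linear signal of the 9 markers was 3748 to 3900 in AI+E2, 3292 to 3945 in AI, 2850 to 3238 in VEH and 3174 to 3462 on D12. AI+E2 thus overlapped with AI in this sum. Dcn, with log2 values of 10.19 to 11.06, made up the largest part of the sum, and Insl3, at 6.44 to 7.62, a small part. The part of these cells in the level of Cyp17a1 was not tested.

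The 11 measured endothelial markers included 8 that fell and 0 that rose in AI against VEH (all genes: 11.0% and 5.91%). In AI+E2 against VEH 6 fell and 0 rose (all genes: 6.91% and 6.11%). In VEH against D12 8 rose and 0 fell (all genes: 6.91% and 3.23%). The 8 rises in VEH against D12 were 5 without D12 replicate 1, and 5 of them (Flt1, Tek, Tie1, Emcn and Esam) kept their call whichever array was left out. Their summed signal was 3925 to 4196 in AI+E2, 3689 to 4303 in AI, 5345 to 5619 in VEH and 3883 to 4435 on D12. VEH stood apart as the group with the lowest Cyp17a1, whereas AI+E2, AI and D12 overlapped. Between AI+E2 and AI, 0 of the 11 passed the limma test (all genes: 8.65% rose and 4.14% fell), which for 11 markers is near these shares. Their median difference was 0.02. At an unadjusted p under 0.05, 2 were higher and 1 was lower in AI+E2. Without AI replicate 2, 1 passed as higher. The methods' t-test called 6 of the 11 lower in AI+E2 against VEH and 0 in each of the other 3 comparisons. The 9 measured luteal markers included 4 that rose and 3 that fell in AI against VEH, of which 2 and 2 kept their call whichever array was left out. Their summed signal was 34390 to 35107 in AI+E2, 34744 to 36252 in AI, 32220 to 33056 in VEH and 31964 to 32299 on D12. Of 11 markers of granulosa cells and oocytes 1 rose and 1 fell in AI against VEH, of 15 of macrophages 3 rose and 0 fell, and of 11 of smooth muscle and pericytes 0 rose and 2 fell. These 2 falls were 5 without VEH replicate 3, and 1 of the 11 rose without VEH replicate 2. The 3 rises of macrophage markers were 1 without AI replicate 3, and the rise among granulosa cell and oocyte markers ended without VEH replicate 1. Among the markers of these 3 groups of cells, Kitlg of granulosa cells (-0.47), Cd68 of macrophages (0.32) and Pdgfrb of pericytes (-0.33) kept their call whichever array was left out. The part of cell composition in the values of Cyp17a1 was not tested.

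Among the 69 other measured cytochrome P450 genes, AI against VEH had 8 that rose and 3 that fell (all genes: 5.91% and 11.0%). The counts were 0 and 6 for AI+E2 against AI (all genes: 8.65% and 4.14%). They were 2 and 3 for AI+E2 against VEH (6.11% and 6.91%) and 2 and 2 for VEH against D12 (6.91% and 3.23%). Cyp1b1, chosen above for its likeness to Cyp17a1, is counted among the 8 rises and the 6 falls. It is also among the 2 falls in VEH against D12. That choice on the same arrays favoured its calls, so they add no evidence to these counts. The count of 8 was 5 without AI replicate 1 or without VEH replicate 1, and 5 of the 8 rises kept their call whichever array was left out, as did 3 of the 6 falls in AI+E2 against AI and 1 of each 2 calls in VEH against D12. The 2 falls in VEH against D12 were 5 without D12 replicate 3. Cyp51, which acts in cholesterol synthesis, had values of 10.36, 10.34 and 10.43 in AI+E2, 11.94, 12.01 and 11.80 in AI, 8.70, 8.60 and 8.82 in VEH and 11.06, 10.90 and 11.19 on D12. Its groups were in the order of those of Cyp17a1, and it fell by 1.54 in AI+E2 against AI (adjusted p = 1.01e-08). Cyp1b1, described above, was the other P450 with a difference of over 2 in AI against VEH. Cyp2u1, a fatty acid hydroxylase, fell by 1.08 in AI against VEH (adjusted p = 1.19e-05), and its values were 7.59, 7.39 and 7.26 in AI+E2, 7.86, 7.96 and 7.82 in AI, 8.99, 8.96 and 8.94 in VEH and 8.38, 8.96 and 8.44 on D12. AI+E2 was lowest for Cyp2u1, farther from VEH than AI was. Cyp27a1, a sterol hydroxylase of mitochondria, rose by 0.46 (adjusted p = 0.000548) and Cyp2t1 by 0.63 (adjusted p = 0.000175). Cyp21a1, which in the adrenal takes progesterone away from the route to androgens, had a difference of 0.01 in AI against VEH and did not pass. It lay at the 0.868 to 2.51 percentile of genes, a signal too low to tell a steady level from no expression.

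On chromosome 1, in the order of genes in the GRCr8 annotation, the 5 measured genes on each side of Cyp17a1 showed only small differences. In AI against VEH, 2 of the 10 rose and 1 fell (all genes: 5.91% and 11.0%). These were the ubiquitin ligase gene Trim8 (0.35, adjusted p = 0.00557) and the lysosome positioning gene Borcs7 (0.36, adjusted p = 0.00516), with a fall of Arl3 (-0.21, adjusted p = 0.0342) that ended without AI replicate 1 (-0.15) or 3 (-0.21) or VEH replicate 1 (-0.19) or 3 (-0.19). Between AI+E2 and AI the magnesium transporter gene Cnnm2 rose by 0.42 (adjusted p = 0.000151). Sfxn2 fell by 0.21, a call that ended without AI replicate 1 (-0.17) or 2 (-0.22) or AI+E2 replicate 2 (-0.20) or 3 (-0.17). Sufu, Wbp1l, Ina and Pcgf6 did not pass in any of the 4 main comparisons. The next neighbours, Wbp1l on one side and Borcs7 on the other, differed by 0.16 and 0.36 in AI against VEH.

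**Figure D4:**
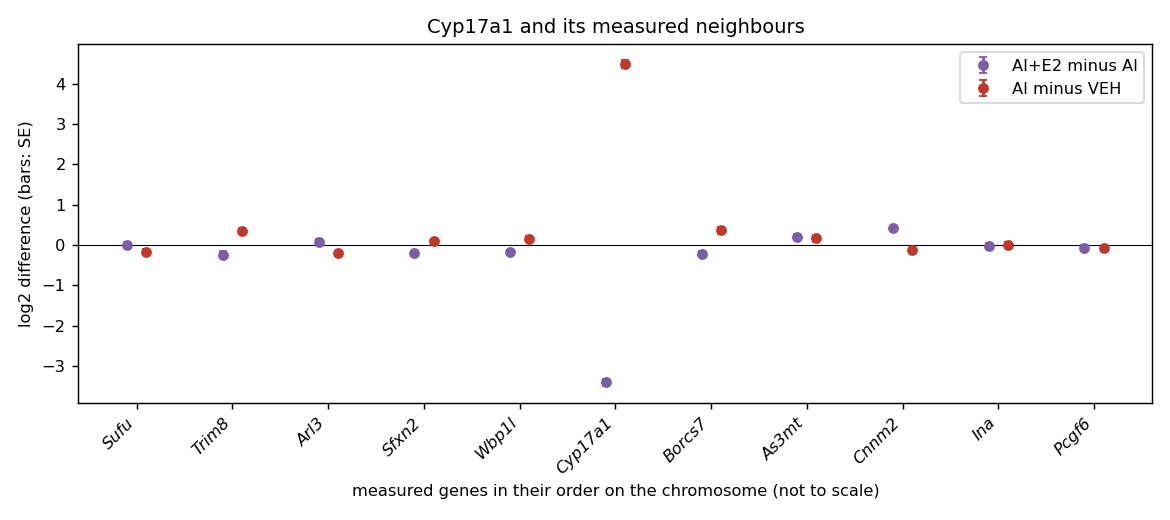
Points give the log2 differences of AI+E2 minus AI (purple) and of AI minus VEH (red) with their SE, for the 10 measured neighbours of Cyp17a1 in their order on the chromosome, not to scale. Cyp17a1 lies at -3.41 and 4.48, while every neighbour lies within 0.5 of 0.

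Of 10 measured genes known to be induced through the androgen receptor, which the products of Cyp17a1 can reach, 1 rose and 2 fell in AI against VEH (all genes: 5.91% and 11.0%). The androgen receptor itself was not analysed here. Fkbp5, an immunophilin that androgens, progestins and glucocorticoids all induce, had values of 9.10, 9.03 and 9.15 in AI+E2, 9.15, 9.28 and 9.28 in AI, 8.28, 8.29 and 8.18 in VEH and 8.95, 8.58 and 8.86 on D12. It rose by 0.98 in AI against VEH (SE 0.082, adjusted p = 5.84e-07). The AI+E2 arrays lay just below the AI arrays, a difference that did not pass. Odc1, the first enzyme of polyamine synthesis, fell by 1.90 (SE 0.060, adjusted p = 1.73e-11), with values of 9.65, 9.57 and 9.68 in AI+E2, 9.19, 9.31 and 9.23 in AI, 11.20, 11.12 and 11.09 in VEH and 9.96, 10.02 and 10.09 on D12. It was lowest where Cyp17a1 was highest and highest where Cyp17a1 was lowest. Ndrg1 fell by 0.35 (adjusted p = 0.00179), and the other 7 did not pass. Members of this list thus moved in both directions, at a median difference of -0.09 in AI against VEH.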

How the data were processed

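CL of 12 rats, 3 in each of 4 groups, gave the RNA for 12 Affymetrix arrays. According to the paper and the submitters' notes the authors used RMA within R 2.12.2, and the deposited table holds log2 values of 29214 probe sets. RMA can compress large differences and assumes like distributions of the arrays. Which arrays were normalized together, the genome build and any filter on dim probe sets are not given in the sources used here. Groups were taken from the sample labels. The platform annotation gave 1 symbol to 15310 probe sets, several to 323 and none to 13581, and 3 more probe sets were named through the study's supplementary lists. Of genes with several probe sets, the one listed by the study or else that with the highest mean was used, which left 14509 genes. Hybridised probes of close relatives can overlap.

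Group means over all 12 arrays came from lmFit and eBayes of limma 3.58.1 under R 4.3.3 (1 mean per group, 8 residual and 6.66 prior degrees of freedom), with Benjamini-Hochberg adjustment over the 14509 genes. Likeness was Pearson's r over the 12 arrays. The text names the 15 highest and 5 lowest r, all measured genes of steroid supply, electron donors and steroid conversion, up to 4 members of each other list with the smallest p in each comparison, Lhcgr, Insl3 and Cyp19a1, the 5 measured neighbours on each side, and the genes ranked next to Cyp17a1. Hsd17b1 was singled out from the conversion list for its scatter after its values were seen. The members and the lists were chosen with earlier results of these data known. Tables were handled with pandas 2.3.3 and numpy 2.4.6 in Python 3.11.15 and drawn with matplotlib 3.10.9. Alternatives were another normalization, a filter on dim genes, other fits, the methods' t-test, a replicate block and leaving out each of the 12 arrays.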

Additional observations from a re-analysis of the deposited data

How the results depend on the processing

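The differences of Cyp17a1 kept their direction under every alternative tried, and leaving out each array in turn gave 4.42 to 4.55 for AI against VEH, -3.50 to -3.34 for AI+E2 against AI, 0.99 to 1.14 for AI+E2 against VEH, -1.59 to -1.45 for VEH against D12, 2.89 to 3.04 for AI against D12 and -0.52 to -0.36 for AI+E2 against D12. Over all probe sets, an alternative chosen after seeing the data, its rank moved to 61 in AI+E2 against VEH and to 381 in AI+E2 against D12. Of the 15 genes most like it, 2 remained with Spearman's rho, 9 over the day 16 arrays alone and 12 to 15 when single arrays were left out. With a span of at least 2 log2 units 3 remained, which were the only ones of the 15 with such a span.
Quantile normalization applied again, subtraction of each array's median and the block gave differences of Cyp17a1 within the spread of replicates.

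The 6 gene lists had 8, 8, 17, 19, 17 and 10 measured genes. Over their members, 13 rose and 8 fell in AI against VEH (all genes: 5.91% and 11.0%). The counts were 8 and 9 for AI+E2 against AI (all genes: 8.65% and 4.14%). They were 12 and 13 for AI+E2 against VEH (6.11% and 6.91%) and 9 and 11 for VEH against D12 (6.91% and 3.23%). Leaving out single arrays gave 10 to 14 and 5 to 8, 6 to 9 and 8 to 12, 8 to 12 and 8 to 13, and 5 to 11 and 8 to 13 for the same comparisons. The lowest counts were 5 falls in AI against VEH without AI replicate 1 or 3, 8 falls in AI+E2 against VEH without AI+E2 replicate 1 and 5 rises in VEH against D12 without VEH replicate 1. The methods' t-test, which estimates the spread of each gene from its own arrays, called fewer genes in 7 of these 8 counts. Over all genes it called 665, 765, 566 and 57 in the 4 comparisons, beside 2460, 1856, 1888 and 1472 by limma. For AI against VEH it gave 5 rises and 3 falls, for AI+E2 against AI 8 rises, as many as limma, and 5 falls, for AI+E2 against VEH 5 rises and 5 falls, and for VEH against D12 1 rise and 0 falls. With only the compared groups in the fit, 5 fell in AI against VEH, and 4 rose and 7 fell in VEH against D12. Normalizing by quantiles again gave 16 falls in AI+E2 against AI, and the cause was not tested. None of the named genes' differences changed direction, but many calls depended on the setting. Of 175 calls among the named genes, 116 were kept whichever array was left out and 46 under every alternative.

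The labels give the groups the same replicate numbers, but only 4 of 18 same-numbered pairs had deviations from the group means that correlated above 0.1 (range -0.486 to 0.339), and 0 of 12 arrays correlated best with its own number, so the numbers were not taken as pairs. With the replicate number as a block, AI against VEH had 13 rises and 6 falls among these genes, beside 13 and 8 without it, and Cyp17a1 kept a difference of 4.48.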

Other observations

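Of 13901 probe sets without a single gene symbol, which entered no test and served above only for the ranks of Cyp17a1 among all probe sets, 209 had group means that spanned at least 1 log2 unit. Of these, 0 followed Cyp17a1 as closely as the 15 named genes did, and the highest r over the 12 arrays was 0.930. AI exceeded VEH by at least 1 in 20 of these probe sets, and the largest difference was 3.51, beside 4.48 for Cyp17a1.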
